A study of Mus musculus with 16 samples.

Results

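Mouse neural crest stem cells that had been primed towards glia were set against unprimed crest stem cells from the same series. The comparison takes 8 of the series' 16 Affymetrix arrays, namely the 4 titled as glia and the 4 titled as unprimed stem cells, and the titles and the cell type label agree on each group. The glia-primed cells had been given growth factors that direct crest cells towards a fate, and the unprimed cells had not. Both groups are primary mouse crest material kept in a stem cell medium that the labels cite from earlier work. The sources used here give neither the factors nor their doses, the length of the exposure, the strain or the age of the embryos. Whether replicates were separate cultures or animals is not stated, so a p-value measures the spread among these samples alone, and that spread may be technical. The series asks how expression in migratory crest stem cells differs after priming, and this comparison asks it for the glial condition. In bulk RNA of this kind, fewer cells of a type and less RNA per cell cannot be told apart.

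Neural crest cells leave the dorsal neural tube, migrate through the embryo and give rise to peripheral neurons, Schwann cells and satellite glia, melanocytes and, in the head, mesenchyme. Sox10 and Foxd3 mark migrating crest, and Sox10 and the neuregulin receptor Erbb3 continue to be expressed in the Schwann cell lineage, while the myelin proteins come up late. Cells make cholesterol from acetyl-CoA through mevalonate, squalene and lanosterol, and the transcription factor SREBP-2 switches the enzymes of this route on together when sterols in the endoplasmic reticulum run low. TGF-beta and BMP ligands signal through SMAD proteins and induce, among other targets, inhibitors that limit their own signal.

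Intensities are given on the log2 scale, with the arrays of each group in the order of replicates 1 to 4, and changes are glia-primed minus unprimed. The 8 arrays had median intensities of 3.06 to 3.12 and correlated at r = 0.914 to 0.947 between the groups. The Gapdh and Actb controls have probe sets at the 3' and 5' ends, which report on RNA or labelling quality. The 3'/5' ratio of Gapdh was 2.95 ± 0.391 in glia-primed and 2.35 ± 0.187 in unprimed arrays (log2, SD, n = 4 each), with overlap. That of Actb was -0.17 ± 0.079 in glia-primed and -0.53 ± 0.158 in unprimed arrays, without overlap, and it was put in no fit. Xist, the RNA of the inactive X chromosome, stood at 5.34, 2.61, 3.25 and 3.31 in glia-primed arrays, against 6.39, 10.52, 9.81 and 10.49 in unprimed arrays. Markers of neural tube cells stood highest in unprimed replicate 4, where Pax6 read 9.49, Olig2 4.79 and Nkx2-2 5.49. The part of these array differences in the results was not tested, and list counts with the Xist level or the Gapdh ratio in the fit, or without unprimed replicate 4, are given beside the lists with calls or together after them.

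Of 18194 genes, 93 (0.511%) passed at an adjusted p under 0.05 in limma's moderated test over all 16 arrays. Of these, 34 were higher (0.187%) and 59 were lower (0.324%) in glia-primed cells, and the change was at least 2-fold in each of the 34 and in 57 of the 59. For 23 of the 93 the probe set is of a type whose probes can match several transcripts, and 110 of 126 other probe sets of these genes changed in the same direction. The arrays of the groups did not overlap for 92 of the 93, against 7.18% of all genes. The split depended on scaling, since cyclic loess gave 39 higher and 35 lower genes, and centring on housekeeping genes gave 93 higher and 19 lower ones. Housekeeping centring moved the median change of all genes to 0.33, and that reference set holds glycolytic genes.

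The count rested on few arrays. It was 49, 42, 42 and 48 without glia-primed replicates 1 to 4, and 37, 42, 50 and 25 without unprimed replicates 1 to 4. It was 168, with all 93 genes among them, when neuron-primed replicate 1 was left out, an array that bears on this comparison through the common residual spread alone. By the same route it was 59 without mesenchyme-primed replicate 1. With the Xist level in the fit 26 genes passed, 19 of them among the 93, and with the Gapdh ratio 30 passed, again with 19 shared. Only 23 genes passed without each of the 8 arrays in turn. Those lower in glia-primed cells were Slc2a3, Rdh10, Dhcr7, Mvd, Nsdhl, Nr6a1, Lss, Insig1, Erg28, Scd2, Cyp51, Scd1, Sqle, Atf7ip2, Idi1, Efnb2 and Tpi1, and those higher were Rhob, Sipa1l2, Cpm, Slc6a15, Spsb1 and Pmepa1. Of the 23, 7 are cholesterol enzymes, 2 are fatty acid enzymes and 2 are TGF-beta response genes.

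The RNA of the cholesterol synthesis enzymes was lower in glia-primed cells along the whole route. Of 17 enzymes measured, 12 fell (against 0.324% of all genes) and none rose. In each of the 17 all 4 glia-primed arrays lay below all 4 unprimed arrays, a pattern that 4.16% of all genes showed. The median change of the 17 was -2.21, against -0.0062 over all genes. The mean level of the list's members lay between 6.21 and 6.98 in glia-primed arrays and between 8.83 and 9.20 in unprimed arrays.

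Promoters of 4 of these enzymes are shown because the enzymes moved together and 2 motifs known from sterol-regulated promoters could be searched in them. The windows run from 250 bases before to 50 bases after the gene's start, on the gene's strand, from RefSeq on GRCm38.p6. Capitals mark CCAAT on either strand (ATTGG is its reverse complement) and, in Hmgcs1, the sterol element. Mvd lies at chr8:122443373-122443672 on the minus strand, Nsdhl at chrX:72918271-72918570 on the plus strand, Cyp51 at chr5:4104648-4104947 on the minus strand and Hmgcs1 at chr13:119690101-119690400 on the plus strand.
Mvd: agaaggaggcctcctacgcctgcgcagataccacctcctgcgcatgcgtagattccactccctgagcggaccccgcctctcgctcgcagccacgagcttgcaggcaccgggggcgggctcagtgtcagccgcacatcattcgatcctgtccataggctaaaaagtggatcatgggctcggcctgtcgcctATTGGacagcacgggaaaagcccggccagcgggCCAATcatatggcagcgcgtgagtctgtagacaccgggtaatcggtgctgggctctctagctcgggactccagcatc
Nsdhl: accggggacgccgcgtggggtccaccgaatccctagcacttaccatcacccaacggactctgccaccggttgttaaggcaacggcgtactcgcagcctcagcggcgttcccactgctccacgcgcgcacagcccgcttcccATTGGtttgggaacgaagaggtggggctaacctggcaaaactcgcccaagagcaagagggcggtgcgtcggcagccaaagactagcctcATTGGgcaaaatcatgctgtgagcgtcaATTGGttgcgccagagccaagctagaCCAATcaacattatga
Cyp51: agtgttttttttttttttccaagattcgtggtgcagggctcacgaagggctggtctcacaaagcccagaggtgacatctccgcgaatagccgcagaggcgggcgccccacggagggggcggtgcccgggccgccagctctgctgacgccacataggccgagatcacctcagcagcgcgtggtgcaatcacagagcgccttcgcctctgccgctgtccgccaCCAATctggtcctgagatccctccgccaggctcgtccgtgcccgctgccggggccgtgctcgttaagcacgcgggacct
Hmgcs1: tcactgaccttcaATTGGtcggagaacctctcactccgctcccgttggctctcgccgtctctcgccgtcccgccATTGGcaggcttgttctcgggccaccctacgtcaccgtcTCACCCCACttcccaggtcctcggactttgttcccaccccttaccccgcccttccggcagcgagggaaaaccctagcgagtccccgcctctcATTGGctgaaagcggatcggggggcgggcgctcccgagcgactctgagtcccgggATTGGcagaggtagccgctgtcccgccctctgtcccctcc
CCAAT, the letters that the factor NF-Y binds, stood on either strand in 14 of the 14 measured cholesterol genes whose promoter was found, against 41.1% of 27025 promoters of the same length. It stood in 7 of 11 fatty acid genes (63.6%) and in 4 of 11 TGF-beta response genes (36.4%). TCACNCCAC, a form of the sterol regulatory element, was searched on both strands and stood in 1 of the 14 (Hmgcs1, 7.14%), where it did not overlap a CCAAT, against 1.44% of all promoters. These are matches of letters, not measured binding.

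The first steps make mevalonate and its phosphates. Hmgcs1, which makes HMG-CoA, read 11.46, 10.40, 10.49 and 10.95 in glia-primed and 12.49, 12.56, 12.46 and 12.66 in unprimed arrays, a change of -1.72 (SE 0.37) that did not pass (adjusted p = 0.061). Its other probe sets changed by -3.14, -2.53 and -2.46, and a dim one by -1.16. Mvk, mevalonate kinase, changed by -1.61 and did not pass either (adjusted p = 0.0705). Pmvk, which adds the next phosphate, fell to 8.65, 8.59, 8.21 and 8.48 in glia-primed arrays, against 9.95, 10.53, 9.43 and 10.35 in unprimed arrays, by 1.58 (SE 0.25, adjusted p = 0.0113). For these enzymes the groups stood apart in each array, with the narrowest gap in Mvk.

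Mvd, whose product decarboxylates mevalonate diphosphate to isopentenyl diphosphate and whose promoter is shown above, had the smallest p-value of the comparison. It read 5.02, 5.22, 5.11 and 5.77 in glia-primed arrays and 8.80, 8.56, 8.58 and 8.64 in unprimed arrays, a 10.3-fold decrease (log2 change -3.37, SE 0.24, adjusted p = 1.75e-05). The 8 values form tight groups, and the adjusted p stayed between 2.52e-05 and 0.000196 when single glia-primed or unprimed arrays were left out. A further probe set of Mvd changed by -3.06. Idi1, the isomerase of isopentenyl diphosphate, read 10.24, 9.001, 9.02 and 9.15 in glia-primed and 11.27, 11.26, 11.46 and 11.36 in unprimed arrays, and fell by 1.98 (SE 0.26, adjusted p = 0.00317). Glia-primed replicate 1 was the highest of its group by more than 1 unit and was still below the unprimed arrays.

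Fdps joins these units to farnesyl diphosphate, which also feeds protein prenylation. It read 6.59, 5.70, 5.11 and 7.19 in glia-primed and 8.43, 8.58, 8.40 and 8.77 in unprimed arrays, and fell by 2.40 (SE 0.38, adjusted p = 0.0138). Without unprimed replicate 4 its adjusted p was 0.058, and that of Pmvk was 0.0506. Fdft1, squalene synthase, changed by -1.77 and did not pass (adjusted p = 0.107), although its arrays did not overlap. Sqle, squalene epoxidase and a rate-limiting step, read 7.41, 7.17, 6.38 and 7.13 in glia-primed arrays against 9.17, 9.10, 9.20 and 9.38 in unprimed arrays, and fell by 2.19 (SE 0.21, adjusted p = 0.000178). Lss closes the ring to lanosterol. It read 8.12, 8.02, 7.63 and 6.96 in glia-primed and 10.48, 11.01, 10.58 and 11.001 in unprimed arrays, and fell by 3.09 (SE 0.47, adjusted p = 0.0102).

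From lanosterol onwards, Cyp51 removes the first methyl group. It read 8.23, 8.46, 8.31 and 8.97 in glia-primed and 10.92, 10.90, 10.97 and 11.13 in unprimed arrays, and fell by 2.49 (SE 0.26, adjusted p = 0.000288). Tm7sf2, a sterol reductase, fell by 2.04, with the smallest gap between groups among the called enzymes (6.14 at most in glia-primed and 6.53 at least in unprimed arrays). Msmo1, which oxidises the next methyl groups, fell by 3.03 and was the most variable, at 6.66, 3.87, 4.46 and 6.31 in glia-primed against 7.97, 8.43, 8.16 and 8.87 in unprimed arrays. Nsdhl, the dehydrogenase of the same complex, was tight at 5.39, 4.61, 5.11 and 4.96 in glia-primed and 8.72, 7.98, 8.10 and 8.46 in unprimed arrays, and fell by 3.30 (SE 0.31, adjusted p = 0.000178). Erg28, which tethers this complex at the membrane and is in none of the lists, fell by 2.54 (SE 0.41, adjusted p = 0.0149).

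The last steps followed the same direction. Hsd17b7 and Ebp, a ketoreductase and an isomerase, changed by -1.82 and -2.69 and did not pass (adjusted p = 0.22 and 0.0602). Sc5d, the desaturase before the final reduction, fell by 2.21 (SE 0.42, adjusted p = 0.0356). Dhcr7, which makes cholesterol from 7-dehydrocholesterol, read 6.53, 5.50, 5.40 and 4.43 in glia-primed and 8.82, 8.77, 9.07 and 9.21 in unprimed arrays, an 11.3-fold decrease (log2 change -3.50, SE 0.52, adjusted p = 0.00731). Lbr, the lamin B receptor, which also has sterol reductase activity, fell by 1.24 (SE 0.25, adjusted p = 0.0426). Without unprimed replicate 4 the number of falling enzymes was 7, with the Xist level in the fit 6 and with the Gapdh ratio 7, while the median change of the 17 was -2.18, -2.36 and -2.40 in these fits. Housekeeping centring gave 9 and a median of -1.87.

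**Figure D1:**
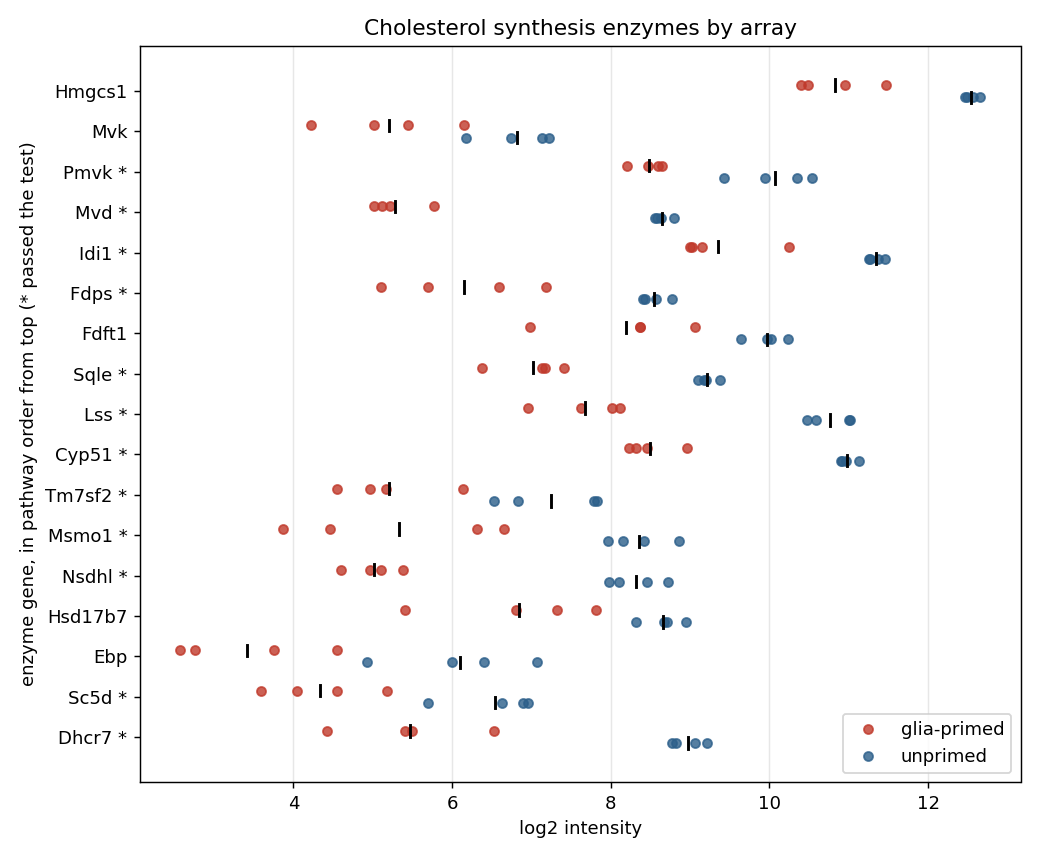
Log2 intensity (horizontal) of the 17 measured cholesterol synthesis enzymes in pathway order from the top, with glia-primed arrays as the upper and unprimed arrays as the lower points of each row, 4 arrays each. Black ticks are group means and stars mark the 12 genes that passed. In each row the glia-primed points lie left of the unprimed points.

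Few regulators of the pathway passed. Among 12 genes of sterol sensing and uptake, 1 fell (against 0.324% of all genes) and none rose. Their median of -0.28 turned to 0.05 under housekeeping centring. The one that fell, Insig1, retains SREBP in the endoplasmic reticulum and is itself a known SREBP target. It read 7.31, 6.54, 5.94 and 6.998 in glia-primed and 9.44, 9.44, 9.32 and 9.66 in unprimed arrays, a change of -2.77 (SE 0.32, adjusted p = 0.0011). Srebf2, which encodes SREBP-2, read 5.38, 6.04, 4.55 and 6.54 in glia-primed and 8.09, 6.71, 7.64 and 6.05 in unprimed arrays, so the groups overlapped and the change of -1.50 (SE 0.50) did not pass (adjusted p = 0.275). Srebf1 changed by -0.06 with overlapping arrays (adjusted p = 0.989), and its sign turned under 7 alternatives. Stard4, a sterol carrier protein, changed by -2.66 without overlap and did not pass (adjusted p = 0.159).

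Insig2, Scap, Npc1 and the receptors Lrp8 and Vldlr did not pass and their arrays overlapped. Of 10 genes of sterol export, most of them targets of the sterol-activated receptor LXR, none passed. The exporter Abca1 read 3.40, 2.76, 5.41 and 2.85 in glia-primed and 1.59, 3.70, 2.02 and 3.45 in unprimed arrays, a change of 0.91 with wide overlap (adjusted p = 0.746). Lipg, an endothelial-type lipase of lipoproteins, fell by 3.19 (SE 0.64, adjusted p = 0.0447) and in glia-primed arrays read 2.78, 2.02, 2.18 and 2.00, below the array median.

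Fatty acid synthesis genes were also lower. Of 14 measured, 6 fell (against 0.324% of all genes) and none rose, the median change was -1.25, and 9 had glia-primed arrays that all lay below the unprimed ones (against 4.16%). The number that fell was 2 without unprimed replicate 4, 1 with the Xist level, 1 with the Gapdh ratio, 3 with cyclic loess and 2 with housekeeping centring, with medians of -1.28 to -0.91 in these fits. Scd2, the stearoyl-CoA desaturase of embryo and brain, read 8.90, 8.59, 7.58 and 8.53 in glia-primed and 10.70, 10.91, 10.90 and 11.21 in unprimed arrays, and fell by 2.53 (SE 0.35, adjusted p = 0.00487). Scd1, its paralog, read 8.26, 7.50, 6.51 and 7.90 in glia-primed against 9.50, 9.86, 9.91 and 10.42 in unprimed arrays, and fell by 2.38 (SE 0.33, adjusted p = 0.00467). Both desaturases were separated in each array and their other probe sets moved the same way.

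Fasn, the fatty acid synthase, read 6.56, 6.11, 6.48 and 7.20 in glia-primed and 8.15, 8.32, 7.92 and 8.69 in unprimed arrays, and fell by 1.68 (SE 0.31, adjusted p = 0.0335). Elovl6, which lengthens its product, fell by 2.09, and the acyl-CoA synthetases Acsl3 and Acsl4 fell by 1.85 and 0.93. The polyunsaturated fatty acid desaturases Fads1 and Fads2 changed by -1.03 and -1.27 and did not pass (adjusted p = 0.0725 and 0.0927), as did Acly, the source of cytosolic acetyl-CoA (-0.78, adjusted p = 0.187). Acaca, the carboxylase that commits acetyl-CoA to this route, overlapped between the groups. Idh1, which supplies NADPH in the cytosol, fell by 1.30 (SE 0.24, adjusted p = 0.0335). Of the 59 genes that fell, 19 belong to the sterol and fatty acid lists. Among 17 genes of ceramide and sphingolipid synthesis none passed, and their median was -0.12.

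Glucose uptake and glycolysis genes stood lower, with 3 of 19 measured falling (against 0.324% of all genes), none rising and a median of -0.76, and with 10 whose glia-primed arrays all lay lower (against 4.16%). The number that fell was 2 without unprimed replicate 4, 2 with cyclic loess, and 1 with the Xist level, the Gapdh ratio, housekeeping centring or without cross-matching probe sets, and the median was -0.53 without unprimed replicate 4 and -0.43 with housekeeping centring. Slc2a3, the high-affinity glucose transporter GLUT3, read 6.95, 4.68, 4.65 and 6.30 in glia-primed and 9.31, 9.45, 9.54 and 10.46 in unprimed arrays, a 16.5-fold decrease (log2 change -4.04, SE 0.56, adjusted p = 0.00457). Its 3 other probe sets changed by -3.65 to -1.37. Slc2a1, which encodes GLUT1, read 11.26, 9.82, 10.23 and 10.45 in glia-primed and 11.84, 12.03, 11.80 and 12.80 in unprimed arrays, a change of -1.68 that did not pass (adjusted p = 0.0618). Glia-primed replicate 1 was the highest of its group for both transporters.

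Tpi1, triosephosphate isomerase, read 10.10, 9.56, 9.47 and 9.66 in glia-primed against 10.995, 11.41, 11.06 and 11.47 in unprimed arrays, and fell by 1.54 (SE 0.21, adjusted p = 0.00392). Pfkl, a phosphofructokinase subunit, fell by 1.76 (SE 0.33, adjusted p = 0.0342). Of its 2 other probe sets, one changed by -1.80 and a dim one by 0.17. Aldoa, Pgk1, Pgam1, Pkm and Ldha changed by -1.09, -0.53, -0.54, -0.60 and -0.63 without overlap and did not pass, and Gapdh overlapped, at -0.15. Of 20 hypoxia response genes, 1 fell (against 0.324% of all genes). This was Ak4, a mitochondrial adenylate kinase, by 1.42 (SE 0.26, adjusted p = 0.0308). Pdk1, which limits pyruvate entry into mitochondria, changed by -2.02 without overlap and did not pass (adjusted p = 0.0808), and Vegfa changed by 0.47 with overlap. Nampt, the enzyme that makes the NAD precursor from nicotinamide, fell by 1.53 (SE 0.26, adjusted p = 0.0187). None of 16 genes of the TCA cycle and none of 24 of the respiratory chain passed, with medians of -0.15 and -0.11.

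**Figure D2:**
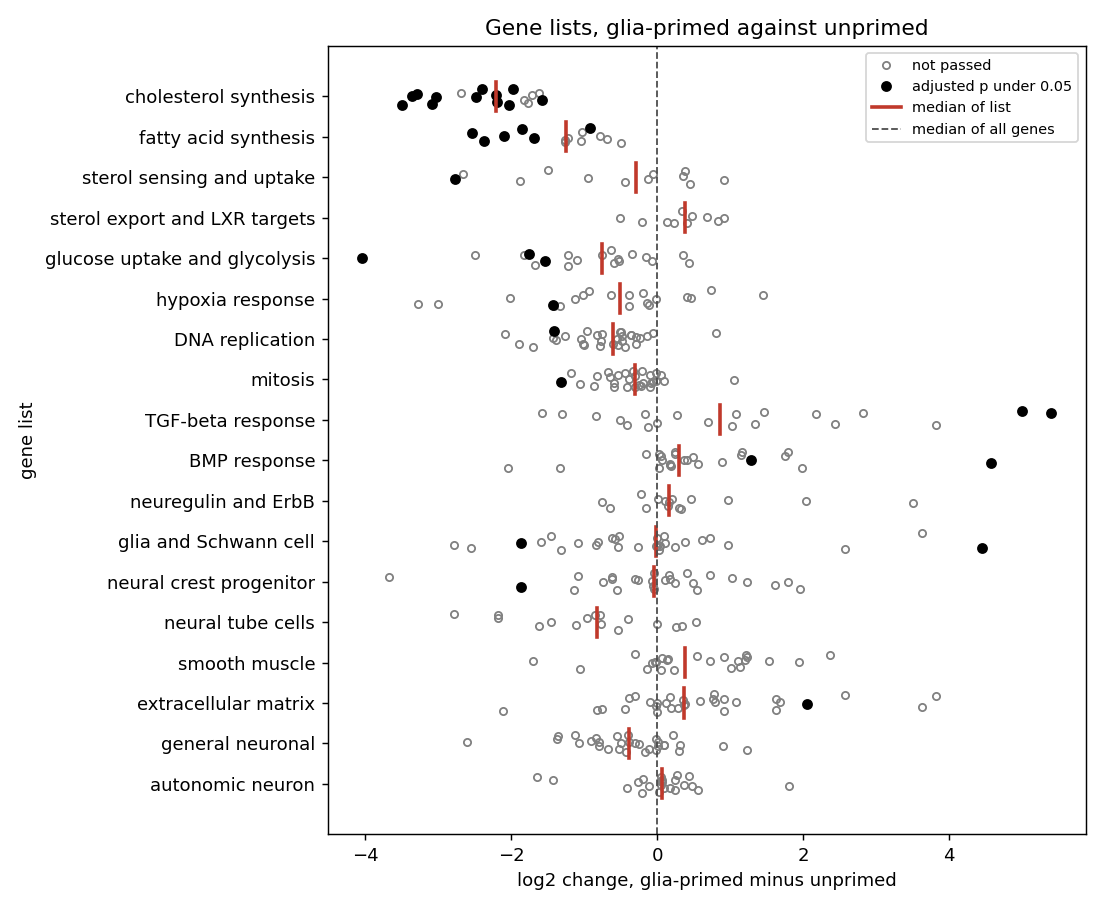
Log2 change, glia-primed minus unprimed (horizontal), of the measured members of 18 gene lists, with vertical scatter for legibility only. Filled points passed at an adjusted p under 0.05, open points did not, red ticks are list medians and the dashed line is the median of all genes. The cholesterol and fatty acid lists lie wholly left of the line, with medians of -2.21 and -1.25, and the 2 rightmost points are Pmepa1 and Spsb1 in the TGF-beta list.

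Genes that answer TGF-beta held the largest rises. Of 20 measured, 2 rose (against 0.187% of all genes) and none fell, 7 had arrays that did not overlap and were higher in glia-primed cells (against 3.02% of all genes), and the median change was 0.86. The 2 calls held without unprimed replicate 4, with the Xist level and with the Gapdh ratio. Pmepa1, which binds SMAD2 and SMAD3 and limits TGF-beta signalling, read 8.66, 9.45, 9.17 and 9.44 in glia-primed and 5.43, 3.95, 3.05 and 2.71 in unprimed arrays, a log2 change of 5.40 (SE 0.54, adjusted p = 0.000207). Spsb1, a ubiquitin ligase adaptor for the type II TGF-beta receptor, read 9.11, 8.65, 9.03 and 8.27 in glia-primed and 3.13, 5.10, 3.98 and 2.85 in unprimed arrays, a log2 change of 4.999 (SE 0.44, adjusted p = 0.000142). For both, the unprimed arrays spread over more than 2 units and the glia-primed arrays over less than 1. Of the unprimed values, 2 for Pmepa1 and 1 for Spsb1 lay below the array's median, so the size of both changes is rough. The other probe sets of Pmepa1 changed by 0.45 and 1.55, and those of Spsb1 by 1.71 to 4.82. The rises were not particular to glial priming. Against the same unprimed arrays, 2 of the 20 genes rose in neuron-primed cells (against 24 of 18194 genes), with a median of 0.91. In mesenchyme-primed cells 1 rose (against 3 of 18194 genes), with a median of 0.25. Spsb1 changed by 3.96 in neuron-primed cells (adjusted p = 0.000787). In mesenchyme-primed cells it changed by 2.67 and did not pass (adjusted p = 0.0723).

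The matrix-associated TGF-beta targets were high but variable. Col1a1, a chain of collagen I, read 9.33, 7.68, 9.05 and 8.61 in glia-primed and 4.47, 3.57, 7.62 and 3.72 in unprimed arrays, and its change of 3.82 (SE 1.09) did not pass (adjusted p = 0.183). Col1a2, the partner chain, read 10.47, 11.25, 10.78 and 10.42 in glia-primed and 8.39, 8.86, 9.36 and 8.10 in unprimed arrays, and rose by 2.05 (SE 0.38, adjusted p = 0.0335). Col1a2 was counted in the list of matrix genes and not in the TGF-beta list. Ccn2 and Ccn1, secreted matricellular proteins, changed by 2.43 and 2.18 without overlap and did not pass (adjusted p = 0.277 and 0.409). Smad7, the inhibitory SMAD, changed by 1.02 (adjusted p = 0.245), and Skil, a SMAD corepressor, by 2.82 with overlap (adjusted p = 0.113). Tsc22d1, Tgif1 and Klf10 overlapped.

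Of 24 BMP response genes, 2 rose (against 0.187% of all genes) and none fell, and 21 lay above 0 (against 8956 of 18194 genes) with a median of 0.30. Neither call held without unprimed replicate 4, with the Xist level or with the Gapdh ratio. Dlx2, a homeobox gene of crest and forebrain, read 8.78, 10.04, 10.34 and 9.45 in glia-primed and 6.23, 4.99, 6.70 and 2.41 in unprimed arrays, and rose by 4.57 (SE 0.92, adjusted p = 0.0452). That call was lost in 7 of the 8 fits that left out an array. Id3, which blocks DNA binding by basic helix-loop-helix proteins, read 7.61, 8.62, 8.59 and 8.36 in glia-primed and 6.94, 7.46, 6.69 and 6.98 in unprimed arrays, and rose by 1.28 (SE 0.24, adjusted p = 0.0335), a call lost in 6 of those 8 fits. Id1 and Id2 changed by 0.17 and 0.89 with overlap, and Id4 by -1.33 with overlap. Msx2, Dlx1 and Bambi changed by 1.80, 1.75 and 1.14 without overlap and did not pass (adjusted p = 0.0602, 0.245 and 0.322). Fst, which encodes follistatin, a secreted binder of activin and BMPs, read 7.27, 7.71, 7.34 and 6.99 in glia-primed and 3.89, 5.50, 3.44 and 4.998 in unprimed arrays, and rose by 2.87 (SE 0.55, adjusted p = 0.0364).

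Few glial markers passed. Of 29 glia and Schwann cell genes measured, 1 rose and 1 fell, 12 lay above and 17 below 0, and the median was -0.02. Sox10 read 6.80, 8.39, 7.28 and 7.90 in glia-primed and 8.74, 7.85, 8.39 and 6.44 in unprimed arrays, well above the array median in both groups, with overlap and a change of -0.26 (SE 0.77, adjusted p = 0.95). Its sign turned under 6 alternatives, and its other probe sets changed by 0.45 and 0.66. Erbb3 read 9.20, 10.03, 9.48 and 9.27 in glia-primed and 8.74, 8.89, 8.67 and 7.77 in unprimed arrays, without overlap, and its change of 0.97 (SE 0.54) did not pass (adjusted p = 0.602). Another probe set of Erbb3 averaged 6.32 in glia-primed and 6.41 in unprimed arrays, a change of -0.09. Both markers of crest and Schwann cell lineage were thus bright in both groups.

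Markers of later glia were at or near the array median. S100b read 3.31, 3.57, 3.66 and 3.33 in glia-primed and 3.45, 3.30, 3.26 and 2.89 in unprimed arrays, and Mbp, myelin basic protein, 2.54, 2.88, 2.87 and 3.29 in glia-primed and 3.17, 2.95, 2.71 and 2.84 in unprimed arrays. Gfap changed by -0.01, Mag by -0.01 and Dhh, a Schwann cell ligand, by 0.03. Fabp7, a fatty acid binding protein of Schwann cell precursors and radial glia, read 7.66, 7.66, 6.58 and 6.99 in glia-primed and 8.32, 8.96, 8.81 and 8.60 in unprimed arrays, a change of -1.45 (SE 0.95) that did not pass (adjusted p = 0.678). L1cam, an adhesion protein of axons and Schwann cells, and Postn, a secreted matrix protein, changed by 2.57 and 3.63 without overlap and did not pass (adjusted p = 0.0564 and 0.062).

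Cryab, the small heat shock protein alphaB-crystallin, found in Schwann cells and in many other cells, was the called riser of the glial list. It read 8.33, 8.34, 8.49 and 8.77 in glia-primed and 5.23, 4.20, 4.86 and 1.81 in unprimed arrays, a change of 4.46 (SE 0.81, adjusted p = 0.0335). Another probe set changed by 3.77 and a dim one by -0.06. Ngfr, the low-affinity neurotrophin receptor p75 by which crest stem cells are commonly sorted, was the called faller. It read 6.27, 7.29, 7.74 and 7.50 in glia-primed and 9.37, 9.39, 9.20 and 8.32 in unprimed arrays, a change of -1.87 (SE 0.39, adjusted p = 0.0479), and its call was lost in each of the 8 fits that left out an array.

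Of 27 crest progenitor genes, Ngfr alone passed, and the median was -0.04. Foxd3 read 4.55, 4.75, 5.03 and 4.73 in glia-primed and 4.96, 4.77, 4.37 and 4.51 in unprimed arrays, with overlap and a change of 0.11. Tfap2a, Tfap2b, Pax3 and Ets1 overlapped. Sox9 and Zic1 changed by -1.14 and -3.68 without overlap and did not pass (adjusted p = 0.326 and 0.197). Snai1, an epithelial-mesenchymal transition factor, changed by 1.96 without overlap and did not pass (adjusted p = 0.104). Of 15 genes of neuregulin and ErbB signalling, none passed. Nrg1 and Erbb4 lay near or below the array median, Hbegf, a ligand of this receptor family, changed by 3.50 (adjusted p = 0.0996), and Lrig3 changed by 2.04 (adjusted p = 0.0953), both without overlap.

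**Figure D3:**
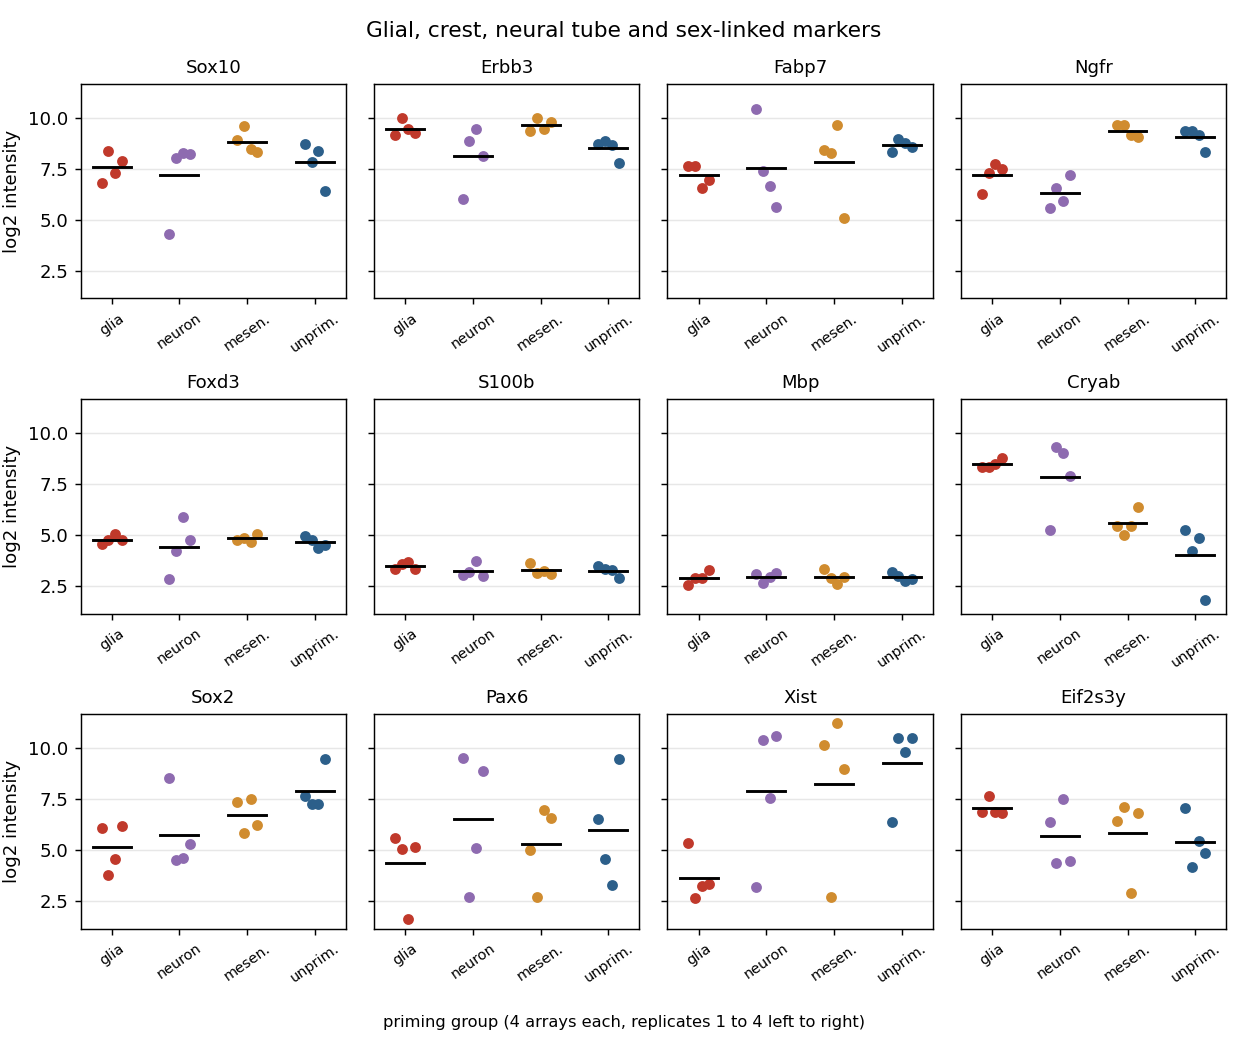
Log2 intensity (vertical) of glial, crest, neural tube and sex-linked markers in the 4 groups, with points for replicates 1 to 4 from left to right and bars for group means. Sox10, Foxd3, S100b and Mbp overlap between glia-primed and unprimed arrays, Ngfr and Xist are lower and Cryab is higher in each glia-primed array, and unprimed replicate 4 is the highest of its group for Sox2 and Pax6.

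Retinoic acid metabolism genes moved in both directions. Of 17 measured, 1 rose and 1 fell. Rdh10, which oxidises retinol to retinal in the embryo, read 4.25, 5.01, 3.09 and 3.65 in glia-primed and 8.05, 7.72, 8.27 and 7.50 in unprimed arrays, a log2 change of -3.89 (SE 0.41, adjusted p = 0.000311). A second probe set changed by -0.79. Dhrs3, which catalyses the reverse reduction of retinal to retinol, read 6.67, 6.45, 7.43 and 7.74 in glia-primed and 4.79, 5.57, 5.16 and 4.92 in unprimed arrays, and rose by 1.96 (SE 0.37, adjusted p = 0.0335). Neither gene overlapped between the groups, and the call of Rdh10 held without each array while that of Dhrs3 was lost in 7 of 8 such fits. Both rest on cross-matching probe sets. With such probe sets left out, Rdh10 changed by -0.79 and did not pass (adjusted p = 0.743), Dhrs3 was not measured, and no gene of the list passed.

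Nr6a1, a nuclear receptor of early embryonic progenitors, read 7.57, 4.62, 6.14 and 6.42 in glia-primed and 9.33, 10.07, 9.04 and 9.32 in unprimed arrays, and fell by 3.25 (SE 0.51, adjusted p = 0.0114). It was the only called gene among 15 of an early embryonic progenitor list, whose median was -0.27 and 0.06 under housekeeping centring. Its 4 other probe sets changed by -3.69 to 0.38. Prtg, protogenin, an immunoglobulin superfamily receptor of early neural tissue, read 8.13, 7.86, 7.89 and 7.90 in glia-primed and 8.86, 9.02, 8.93 and 9.70 in unprimed arrays, and fell by 1.18 (SE 0.22, adjusted p = 0.0342). Axin2, a feedback inhibitor and target of Wnt signalling, fell by 2.25 (SE 0.45, adjusted p = 0.0447) and was the only called gene of 16 Wnt targets. None of 16 Notch genes, 24 Hox genes or 22 genes of ERK feedback and immediate early response passed.

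Outside the lists, 26 genes rose and 30 fell, and they are named here after their values were seen. Cpm, a membrane carboxypeptidase that trims basic residues from peptides, read 6.28, 6.18, 5.88 and 5.73 in glia-primed and 2.30, 1.62, 2.48 and 1.98 in unprimed arrays, a log2 change of 3.92 (SE 0.39, adjusted p = 0.000207). Its unprimed values lay below the array median, so the size of the change is rough. Furin, a proprotein convertase that cleaves TGF-beta precursors among others, read 8.90, 8.63, 8.81 and 8.87 in glia-primed and 5.90, 6.52, 7.05 and 6.99 in unprimed arrays, and rose by 2.19 (SE 0.41, adjusted p = 0.0342). Adam19, a metalloprotease that can process neuregulins, rose by 2.89 (SE 0.59, adjusted p = 0.0479), and Adamts1, a matrix protease, by 1.96 (SE 0.35, adjusted p = 0.0296).

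Kitl, the ligand of Kit, read 7.002, 7.77, 7.18 and 7.78 in glia-primed and 4.61, 3.99, 5.60 and 3.52 in unprimed arrays, and rose by 3.00 (SE 0.61, adjusted p = 0.0452). Unc5b, a netrin receptor, rose by 2.67 (SE 0.49, adjusted p = 0.0335), and Sema6d, a transmembrane semaphorin, by 1.36 (SE 0.28, adjusted p = 0.0452). Efnb2, the ephrin ligand that guides migrating crest, read 7.80, 7.61, 7.28 and 7.60 in glia-primed and 8.95, 9.24, 9.11 and 9.15 in unprimed arrays, and fell by 1.54 (SE 0.21, adjusted p = 0.00392). Gas1, a membrane co-receptor of hedgehog proteins, fell by 1.28 (SE 0.23, adjusted p = 0.0307). None of these genes overlapped between the groups, and among them the call of Efnb2 alone held without each array.

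Slc6a15, a transporter of branched-chain amino acids and proline in neural tissue, read 6.82, 7.01, 7.81 and 6.18 in glia-primed and 2.63, 2.04, 3.68 and 2.72 in unprimed arrays, and rose by 4.19 (SE 0.54, adjusted p = 0.00311). Rhob, a small GTPase of endosomes and stress fibres, was bright and tight at 11.33, 11.40, 11.45 and 11.27 in glia-primed and 9.77, 9.25, 10.08 and 9.05 in unprimed arrays, and rose by 1.83 (SE 0.27, adjusted p = 0.00707). Sipa1l2, a relative of Rap GTPase activators, rose by 2.46 (SE 0.35, adjusted p = 0.00594). These 3 kept their calls without each of the 8 arrays, and the size of the change of Slc6a15 is rough, since 3 of its unprimed values lay below the array median. Rassf4, a Ras association protein, read 4.05, 7.17, 7.57 and 7.04 in glia-primed and 2.13, 2.08, 2.10 and 2.55 in unprimed arrays, so glia-primed replicate 1 stood far below its group while the groups did not overlap. Its change was 4.24 (SE 0.71, adjusted p = 0.0185), from unprimed values below the array median.

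Prkg2, a cyclic GMP-dependent kinase, rose by 3.01 (SE 0.59, adjusted p = 0.0402), Nfkbia, the inhibitor of NF-kappaB, by 1.70 (SE 0.33, adjusted p = 0.0364), and Megf10, an engulfment receptor of glia, by 1.80 (SE 0.30, adjusted p = 0.0181). Nav2, a cytoskeletal regulator of neurite growth, rose by 2.96, with unprimed replicate 2 at 6.45 and the other unprimed arrays between 3.34 and 3.55. Cnn3, an actin-binding calponin, rose by 1.23 (SE 0.24, adjusted p = 0.0396), while none of 24 smooth muscle genes passed and their median was 0.39. Of 31 matrix genes Col1a2 was the only called member, and of 20 cartilage and bone genes it was Col2a1, collagen II, which rose by 2.10 (SE 0.40, adjusted p = 0.0342). Other fallers outside the lists were Kat5, a histone acetyltransferase (-2.38), Kdm4a, a histone demethylase (-1.29, with another probe set at 0.24), Aff3 (-1.67) and Atf7ip2 (-1.98, from a dim level and with other probe sets at 0.18 and 1.13).

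**Figure D4:**
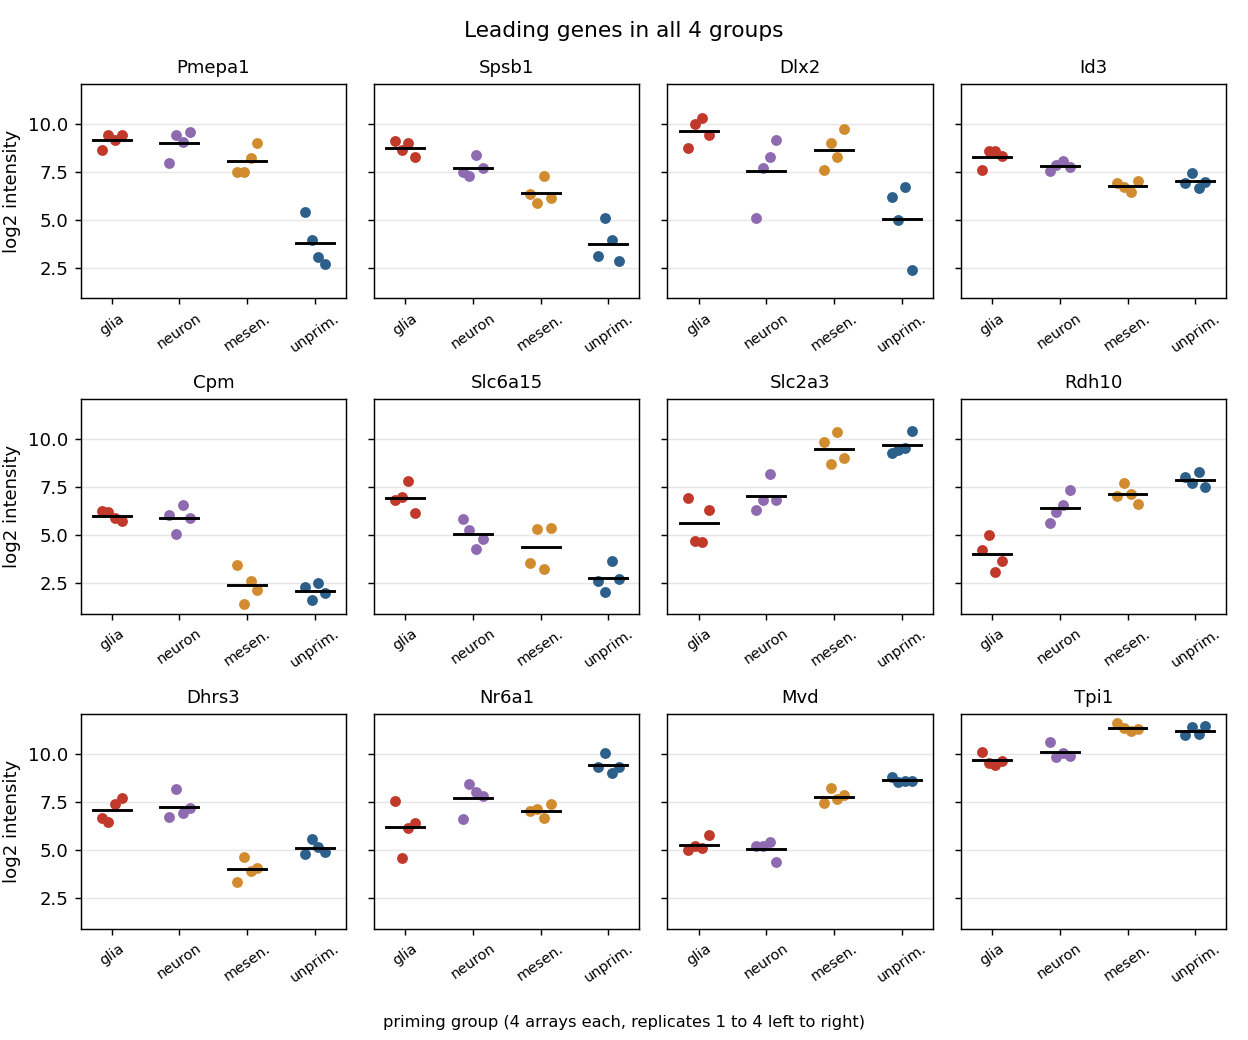
Log2 intensity (vertical) of 12 leading genes in the 4 groups, with points for replicates 1 to 4 from left to right and bars for group means. Pmepa1, Spsb1, Cpm and Slc6a15 are higher and Slc2a3, Rdh10, Nr6a1, Mvd and Tpi1 lower in each glia-primed array than in each unprimed array, and neuron-primed arrays lie near glia-primed ones for Cpm and Mvd.

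Genes of DNA replication lay lower in glia-primed cells, with 1 of 31 falling (against 0.324% of all genes). In 30 the change lay below 0 (against 9238 of 18194 genes), and the median was -0.61, or -0.27 with housekeeping centring. Gins2, a subunit of the replicative helicase, read 7.49, 7.86, 7.16 and 7.83 in glia-primed and 8.87, 8.88, 8.83 and 9.40 in unprimed arrays, and fell by 1.41 (SE 0.27, adjusted p = 0.0364). Its call was lost in each of the 8 fits that left out an array, and with cyclic loess and housekeeping centring. Of the 31, 11 had arrays that did not overlap and were lower, against 4.16% of all genes. Pclaf, a PCNA-associated factor, fell by 1.25 (SE 0.22, adjusted p = 0.0308). Of 29 mitosis genes 1 fell (against 0.324% of all genes). This was Anln, a cytokinesis scaffold, by 1.32 (SE 0.27, adjusted p = 0.0452), with another probe set at 0.56. The median of the mitosis genes was -0.31, and 0.02 under housekeeping centring. None of 15 G1 cyclins and CDK inhibitors or of 12 Myc family genes passed.

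Markers of other cell types gave no called gene. The neural tube list of 16 genes had a median of -0.82, and -0.29 without unprimed replicate 4, and its level lay between 4.22 and 5.20 in glia-primed arrays and at 5.37, 5.10, 4.91 and 6.81 in unprimed arrays. Sox2, which marks neural progenitors and is also kept in crest-derived glia, read 6.07, 3.75, 4.57 and 6.15 in glia-primed and 7.66, 7.27, 7.28 and 9.47 in unprimed arrays, a change of -2.78 that did not pass (adjusted p = 0.22). None of 23 autonomic, 16 sensory and 31 general neuronal genes passed, with medians of 0.06, -0.19 and -0.39. Of 14 melanocyte, 15 surface epithelium, 13 endothelium, 14 blood and macrophage and 18 somite and muscle genes none passed either, and the levels of these lists lay between 2.42 and 3.82 in all 8 arrays. On the X chromosome 4 of 617 genes fell and none rose, while 55 of 17402 autosomal genes fell and 34 rose.

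For lists with a single called gene in a direction, the shares over all genes were 0.187% higher and 0.324% lower. Most of these 12 calls were lost in at least 1 of the fits without unprimed replicate 4, with the Xist level or with the Gapdh ratio. Insig1 and Rdh10 kept theirs in all 3, but Rdh10 lost its call when cross-matching probe sets were left out. Nr6a1 kept its call in the first of these fits and Col1a2 in the second. Ak4, Axin2, Dhrs3, Cryab, Ngfr, Col2a1, Gins2 and Anln lost theirs in all 3, where their adjusted p lay between 0.0585 for Ngfr without unprimed replicate 4 and 0.352 for Gins2 with the Gapdh ratio.

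Set against mesenchyme-primed cells, glia-primed cells differed in 41 of 18194 genes (0.225%), with 13 higher (0.0715%) and 28 lower (0.154%). Of the 17 cholesterol enzymes 9 were lower, with a median of -1.98. Mvd averaged 5.28 ± 0.34 in glia-primed and 7.80 ± 0.34 in mesenchyme-primed arrays (SD, n = 4 each), and Lss 7.68 ± 0.53 in glia-primed and 11.02 ± 0.34 in mesenchyme-primed arrays. Slc2a3 was lower by 3.85 and Rdh10 by 3.13, as differences on the log2 scale. Cpm averaged 6.02 ± 0.25 in glia-primed and 2.41 ± 0.85 in mesenchyme-primed arrays, and Dhrs3 7.07 ± 0.61 in glia-primed and 3.99 ± 0.54 in mesenchyme-primed arrays. Id3 and Spsb1 were higher by 1.497 and 2.33, whereas for Pmepa1, which averaged 9.18 in glia-primed and 8.09 in mesenchyme-primed arrays, no call was made. The count was 18 without glia-primed replicate 3 and 22 without glia-primed replicate 4, 14, 25 and 21 without mesenchyme-primed replicates 1 to 3, and 68 without neuron-primed replicate 1.

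Set against neuron-primed cells, 2 of 18194 genes passed (0.0110%) and 1135 had an unadjusted p under 0.05 (6.24%). Mef2c, a transcription factor of crest and muscle, read 6.71, 8.31, 8.21 and 6.53 in glia-primed arrays and averaged 3.21 ± 0.20 in neuron-primed arrays (SD, n = 4), a difference of 4.23. Against unprimed arrays Mef2c changed by 0.25 with overlap. Vat1l averaged 4.49 ± 0.71 in glia-primed and 7.25 ± 0.32 in neuron-primed arrays, a difference of -2.76. Mvd averaged 5.28 in glia-primed and 5.06 in neuron-primed arrays, and the cholesterol list had a median difference of -0.27 with no enzyme called. In their own comparison with the same unprimed arrays, 10 of the 17 enzymes fell in neuron-primed cells (against 0.302% of all genes), with a median of -1.82. None fell in mesenchyme-primed cells, where only 1 of 18194 genes fell (0.00550%), so that count says little. There 14 of the 17 lay below 0 (against 9235 of 18194 genes), with a median of -0.19. Against neuron-primed cells, the count of called genes was 5 without glia-primed replicate 1, and 7 and 4 without neuron-primed replicates 1 and 2.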

How the data were processed

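RNA of 16 samples was labelled from 2 ug of total RNA and hybridised to Affymetrix mouse arrays, per the labels' protocols. The deposited intensity values were made by the authors with RMA (version not given), per the submitters' processing notes. They run from 1.487 to 31600 and are thus on a linear scale, and log2 was taken here with no offset. Probe sets with 1 gene symbol (34958 of 45101) were kept, their symbols were brought up to date by Entrez identifier from a GRCm38.p6 table (99.4% matched), and 1 probe set stood for each of 18194 genes, the brightest by its mean over the 16 arrays. A group-means model over the 16 arrays was fitted with limma 3.58.1 (lmFit and eBayes) in R 4.3.3. Tests were two-sided, with p-values adjusted by the Benjamini-Hochberg method over all genes, and a gene passed at an adjusted p under 0.05. All adjusted p-values are from this test.

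The comparison, its members, the gene lists and the naming rule were chosen with earlier results of these data known. The rule names, among called genes without overlap, the top 10 in each direction, then each called list member, a fixed set of lineage and sterol genes, the top 3 each way between glia-primed and other primed arrays, and the 2 members with the smallest p of lists without a called gene. Other genes named were chosen after their values were seen. Same-numbered arrays of the groups deviated together at r = -0.045 to 0.015, and 1 of 4 glia-primed arrays correlated best with its own number, so the numbers were not taken as pairs. Arrays of 18194 genes were simulated from each gene's mean and residual spread, with independent normal noise and no array differences. Changes were planted in glia-primed arrays, only in genes brighter than the median. Against unprimed arrays, 5, 31, 41 and 47 of 50 genes changed by 2-, 4-, 8- and 16-fold were called, and 10 of 134 calls were false. Changes of 2-fold were thus mostly missed in the simulation. For dim genes, or with array differences such as those of Xist and the 3'/5' ratios, it gives no rates. The number of arrays limits the precision. Alternatives were the replicate block, other scalings, filters, choices of probe set, covariates and leaving out arrays.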

Additional observations from a re-analysis of the deposited data

Results flagged for a closer look

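Among 206 groups of 4 arrays checked for 103 named genes, 10 single arrays stood far from the other 3 of their group, and chance alone gives about 1 such group in 20. In glia-primed arrays, Rassf4 read 4.05 in replicate 1 (others 7.04 to 7.57), Idi1 10.24 in replicate 1 (others 9.001 to 9.15), Mxd3 5.56 in replicate 3 (others 6.39 to 6.52) and Eif2s3y 7.64 in replicate 2 (others 6.80 to 6.87). In unprimed arrays, replicate 2 read 6.45 for Nav2 (others 3.34 to 3.55), 3.98 for Lipg (others 5.80 to 6.12) and 3.32 for Abcg4 (others 3.03 to 3.07). Unprimed replicate 4 read 2.55 for Rassf4 (others 2.08 to 2.13), 9.40 for Gins2 (others 8.83 to 8.88) and 6.18 for Mef2c (others 7.45 to 7.61).

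For 27 genes called in glia-primed against unprimed cells, the response also differed between the glial and the mesenchymal condition, by limma's test of glia-primed minus mesenchyme-primed arrays. The differences (log2) of cholesterol enzymes were -3.34 for Lss, -3.31 for Dhcr7, -2.79 for Nsdhl, -2.56 for Tm7sf2, -2.52 for Mvd, -2.41 for Cyp51, -2.05 for Sqle, -1.97 for Idi1 and -1.50 for Pmvk. Insig1 differed by -2.39, Scd2 by -2.26 and Scd1 by -1.88. In glucose and energy metabolism Slc2a3 differed by -3.85, Pfkl by -1.86, Ak4 by -1.76 and Tpi1 by -1.67. Rdh10 differed by -3.13, Ngfr by -2.19, Grhpr by -1.69, Nampt by -1.42 and Mrps18c by -0.89. Higher in glia-primed cells were Cpm by 3.61, Dhrs3 by 3.08, Spsb1 by 2.33, Pvr by 2.06, Gask1b by 1.84 and Id3 by 1.497. No gene called against unprimed cells also differed between glia-primed and neuron-primed arrays by this test.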

How the results depend on the processing

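Against unprimed cells, 93 genes passed, and 25 to 50 passed when single glia-primed or unprimed arrays were left out. The count was 52 with the replicate block (45 of them among the 93), 60 with only the 2 groups in the fit, 168 without neuron-primed replicate 1, 59 to 86 without another neuron-primed or a mesenchyme-primed array, 149 with array weights, 26 with the Xist covariate and 30 with the Gapdh ratio covariate. It was 74 to 124 under loess, housekeeping centring, the filter on dim genes, the offset of 16, other probe set choices and the trended robust fit. Against mesenchyme-primed cells, 41 genes passed, and 18 to 38 without single glia-primed or unprimed arrays, 14 to 30 without single mesenchyme-primed arrays, 22 with the replicate block, 68 without neuron-primed replicate 1, 62 with housekeeping centring (48 higher and 14 lower), 62 with array weights and 21 with the Xist covariate. Against neuron-primed cells, 2 passed, and 2 to 5 without single glia-primed or unprimed arrays, 7 without neuron-primed replicate 1, 3 to 4 without another neuron-primed array and 0 with only the 2 groups in limma's fit, where 869 had an unadjusted p under 0.05. Leaving out mesenchyme-primed arrays and neuron-primed replicates 2 to 4 was chosen after seeing the data.

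Among the values of named genes under alternatives, 1777 kept direction and side of the threshold, 311 kept direction and lost the call, 26 kept direction and gained one, and 24 turned in sign. Leaving out cross-matching probe sets gave -0.061 for Cryab, 0.17 for Pfkl, 0.23 for Cdk2 and -0.13 for Tnnt2. Sox10 (-0.73 to 0.035 without single arrays) turned to 0.076 with housekeeping centring, 0.28 with the mean over probe sets, 0.13 with the Xist and 0.46 with the Gapdh covariate. Srebf1 (-0.56 to 0.38 without single arrays) turned to 0.0041 with loess, 0.27 with housekeeping centring and 0.50 with the Gapdh covariate. Mef2c (-0.093 to 0.55 without single arrays) turned to -0.37 with the Gapdh covariate. Atf3 turned to 0.084 and Eif2s3y to -0.25 with the Xist covariate, and Vwf to 0.053 with housekeeping centring. The cause was not tested. Signal over background was not measured, so changes from levels below the array median are rough: 6 called risers had such an unprimed level and 4 called fallers such a glia-primed level.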
